A study of Citrus maxima and Citrus sinensis with 8 samples.

Results

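Among 30297 gene IDs, 29 genes had leaf RNA that stood higher in sweet orange (Citrus sinensis) than in pummelo (Citrus grandis, labelled with its synonym Citrus maxima) in every library, whether or not the seedlings had received aluminium. They were chosen by their FPKM, a count of sequenced fragments divided by gene length and library size. On FPKM + 1, the lowest of the 4 C. sinensis libraries had to be at least 4 times the highest of the 4 C. grandis libraries. The mean of the aluminium libraries over that of the control libraries had to lie between 1/1.5 and 1.5 in each species. The mean of the C. grandis libraries had to reach 1 FPKM, and the mean of all 8 libraries had to stay below 500 FPKM. The values that follow for the species and for aluminium are therefore descriptions of what the choice required, and they support no separate finding. The study asked how leaves of these species, which differ in their tolerance of aluminium, respond to it, and it compared C. sinensis seedlings given aluminium for 18 weeks, C. sinensis control seedlings, C. grandis seedlings given aluminium for 18 weeks and C. grandis control seedlings. Each of the 4 groups had 2 replicates, and each replicate was a pool of leaves from 5 seedlings, 1 to a pot, so differences among single plants cannot be seen. The labels also state that RNA was extracted independently a second time, and whether the libraries of a group came from separate pools or separate extracts is not fully clear, so the errors given here measure the spread between libraries. The labels name no cultivar, aluminium dose or leaf age.

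Aluminium dissolves in acid soils as ions that damage root tips, and leaves of affected plants commonly lose photosynthetic capacity. Sweet orange descends from crosses between pummelo and mandarin, so it carries chromosome segments related to those of pummelo beside segments of mandarin origin. FPKM is a relative measure, so it shows a share of the RNA in a library and not an amount per leaf or per cell. The files do not pair the gene IDs with names or functions, no annotation was used here, and the IDs are given as deposited, with no role for any of them. For the same reason no leaf marker could be looked up, the labelled tissue was not checked, and near-identical gene copies that may share reads were not analysed here.

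Reads of both species were counted on 1 set of IDs. A lower level of RNA in C. grandis and a loss of its reads on sequence that differs between the species cannot be told apart in these data. In leaf tissue, fewer cells of a type and less RNA per cell cannot be told apart either. The totals behind the FPKM were 16443205 to 19794247 reads. The mean chi-square per gene between replicates, which is 1 from counting error alone, was 90.8 for C. sinensis aluminium, 10.5 for C. sinensis control, 1.81 for C. grandis aluminium and 63.8 for C. grandis control. Replicates of C. grandis aluminium thus differed by little more than counting error. The labels describe the C. grandis aluminium libraries as separate replicates, and they were kept as 2.

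Of the 16327 genes with a mean of at least 1 FPKM over the 8 libraries, 298 met the 4-fold gap, 1.83% of those tested. Of the 297 whose mean over all libraries stayed below 500 FPKM, 48 had a mean of at least 1 FPKM in C. grandis. The 29 genes were those of the 48 whose aluminium ratio stayed within the bound in both species, while 9 left it in C. sinensis only, 5 in C. grandis only and 5 in both. All 29 were among the genes tested. The 29 had mean levels of 11.6 to 889.8 FPKM in C. sinensis and 1.01 to 56.9 FPKM in C. grandis. Their median level was 40.4 FPKM in C. sinensis leaves, against 3.47 FPKM in leaves of C. grandis. The level in C. grandis was thus 0.858% to 16.6% of that in C. sinensis, with a median of 9.17%. The ratio of mean FPKM + 1 had a median of 7.80 over the 29 genes. It lay under 10 for 21 of them, between 10 and 20 for 5 and over 40 for 3. In C. sinensis 6 of the genes had a mean above 100 FPKM and the other 23 lay between 10 and 100 FPKM, whereas in C. grandis 14 had a mean below 3 FPKM, 11 lay between 3 and 10 FPKM and 4 were above 10 FPKM.

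**Figure D1:**
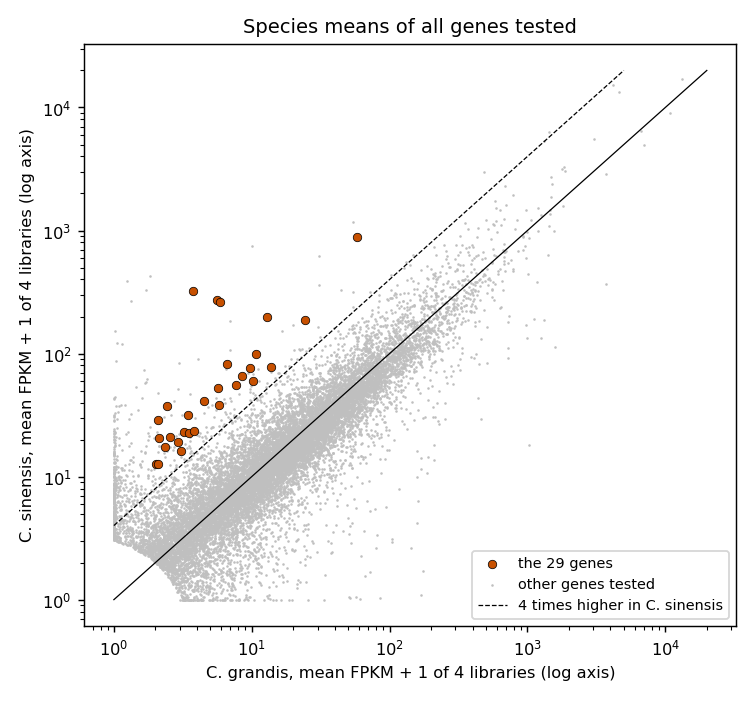
Mean FPKM + 1 of the 4 C. sinensis libraries (vertical, log axis) against that of the 4 C. grandis libraries (horizontal, log axis) for the 16327 genes tested, with the 29 genes in orange. All 29 lie above the dashed line of a 4-fold ratio, and 3 of them lie at over 40-fold.

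The test across all genes used limma on log2(FPKM + 1), and a gene was called at a Benjamini-Hochberg adjusted p below 0.05. In aluminium leaves it called all 29 genes higher in C. sinensis, where 20.3% of all genes tested were called in that direction, 19% lower and 39.3% either way. In control leaves it called all 29 higher in C. sinensis, where 18.9% of all genes tested were, 29.9% lower and 48.9% either way. The rule required this gap, so nothing is read from these counts. The median log2 difference of the 29 genes was 3.11 in aluminium leaves and 3.03 in control leaves, beside -0.03 and -0.17 over all genes tested. Reads on the 29 genes made up between 0.228% and 0.243% of the total in the C. sinensis libraries, and between 0.0153% and 0.0188% in the C. grandis libraries.

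The widest gap belonged to Cs4g09840. It stood at 415 and 293 FPKM in C. sinensis aluminium leaves, 283 and 287 FPKM in C. sinensis control leaves, 2.13 and 2.08 FPKM in C. grandis aluminium leaves and 4.03 and 2.72 FPKM in C. grandis control leaves. All 4 C. sinensis libraries lay above 283 FPKM, and no C. grandis library passed 4.03 FPKM. Its reads in C. grandis numbered 34 and 32 in aluminium leaves and 61 and 47 in control leaves, against 6466 and 5207 in C. sinensis aluminium and 5157 and 5186 in C. sinensis control leaves. In reads per library total, summed over the 4 libraries of each species, Cs4g09840 was higher in C. sinensis by 116-fold (95% counting interval 99.7 to 135). Such intervals, exact for 2 summed counts, cover counting error only and not the spread between pools.

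Next in order was Cs9g02790, at 266 and 206 FPKM in C. sinensis aluminium leaves, 305 and 313 FPKM in C. sinensis control leaves, 5.81 and 5.17 FPKM in C. grandis aluminium leaves and 0.727 and 6.51 FPKM in C. grandis control leaves. In C. sinensis both aluminium libraries lay below both control libraries, and its C. grandis control libraries were apart, with 9 and 92 reads in replicates 1 and 2. The species ratio of its reads was 58.9-fold (95% counting interval 51.8 to 67.1). The third gene over 40-fold was Cs7g04020, at 242 and 207 FPKM in C. sinensis aluminium leaves, 332 and 259 FPKM in C. sinensis control leaves, 4.53 and 3.72 FPKM in C. grandis aluminium leaves and 4.28 and 7.06 FPKM in C. grandis control leaves. Here both treatments of C. grandis overlapped, and the species ratio of its reads was 52.6-fold (95% counting interval 47.5 to 58.5). These 3 genes were alike in level in C. sinensis, with means of 319.6, 273 and 260.0 FPKM, and none of them passed a mean of 5 FPKM in C. grandis. No other of the 29 genes exceeded a ratio of 15.4 on FPKM + 1, which leaves a gap in the order between that value and 44.3.

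**Figure D2:**
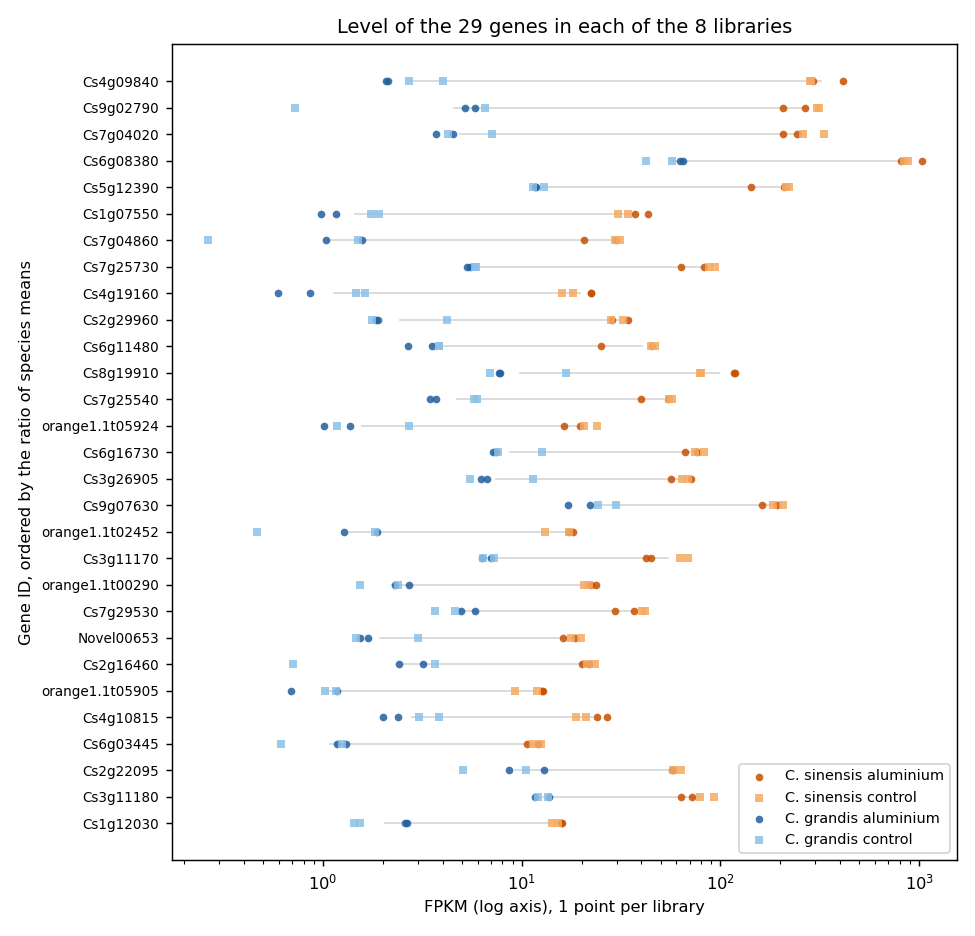
FPKM (horizontal, log axis) of each of the 29 genes in each of the 8 libraries, 1 point per library, with a grey line from the C. grandis mean to the C. sinensis mean of each gene and the gene IDs ordered by the ratio of those means. Points of the species are separated in every row, and the C. grandis control points of Cs9g02790 lie farthest apart.

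The most abundant of the 29 genes in both species was Cs6g08380. It stood at 813 and 1029.7 FPKM in C. sinensis aluminium leaves, 877 and 840.1 FPKM in C. sinensis control leaves, 65.1 and 62.8 FPKM in C. grandis aluminium leaves and 42.3 and 57.3 FPKM in C. grandis control leaves. This put its mean over all libraries at 473 FPKM, near the limit of 500 FPKM in the rule. Cs6g08380 is also 1 of the shortest, with a length of 253 bp recovered from the FPKM, so its high FPKM rested on 3480 and 5027 reads in C. sinensis aluminium and 4391 and 4181 reads in C. sinensis control leaves. By number of reads, which rises with gene length, Cs4g09840 and Cs7g04020 stood higher than Cs6g08380 in C. sinensis, with 22016 and 21336 reads over the 4 libraries, against 17079. Second in level in C. grandis was Cs9g07630, at 162 and 192 FPKM in C. sinensis aluminium leaves, 184 and 207 FPKM in C. sinensis control leaves, 17.2 and 22.1 FPKM in C. grandis aluminium leaves and 24.2 and 29.8 FPKM in C. grandis control leaves. Of its C. grandis libraries, both in aluminium leaves lay below both in control leaves, while the treatments overlapped in C. sinensis.

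At the low end stood orange1.1t05905 and Cs6g03445. The level of orange1.1t05905 was 12.7 and 12.8 FPKM in C. sinensis aluminium leaves, 9.21 and 12 FPKM in C. sinensis control leaves, 1.175 and 0.688 FPKM in C. grandis aluminium leaves and 1.16 and 1.02 FPKM in C. grandis control leaves. Cs6g03445 was listed at 12.1 and 10.6 FPKM in C. sinensis aluminium leaves, 11.4 and 12.5 FPKM in C. sinensis control leaves, 1.177 and 1.30 FPKM in C. grandis aluminium leaves and 1.24 and 0.613 FPKM in C. grandis control leaves. In both, every C. sinensis library was above 9 FPKM and every C. grandis library below 1.5 FPKM. The C. grandis levels of orange1.1t05905 rested on 16 and 9 reads in aluminium and 15 and 15 reads in control leaves. Counting error alone is wide at such depth, and 11 of the 29 genes had fewer than 20 reads in at least 1 C. grandis library. The lowest number was 2 reads, for Cs7g04860 in C. grandis control replicate 2, whereas no C. sinensis library had fewer than 100 reads on any of the 29 genes. The counting interval of the species ratio lay above 4 for all 29, which the rule made likely since it used the same libraries.

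The narrowest ratios of means were those of Cs1g12030 and Cs3g11180. Cs1g12030 had 15.9 and 15.8 FPKM in C. sinensis aluminium leaves, 14.2 and 15.2 FPKM in C. sinensis control leaves, 2.63 and 2.59 FPKM in C. grandis aluminium leaves and 1.43 and 1.53 FPKM in C. grandis control leaves. Its replicates were the closest of the 29 genes, and no pair of them differed by more than 0.0877 on the log2(FPKM + 1) scale. For Cs3g11180 the levels were 63.5 and 72.2 FPKM in C. sinensis aluminium leaves, 79.3 and 92.6 FPKM in C. sinensis control leaves, 13.6 and 11.7 FPKM in C. grandis aluminium leaves and 13.5 and 12.1 FPKM in C. grandis control leaves. The species ratio of reads was 7.47-fold (95% counting interval 6.11 to 9.21) for Cs1g12030 and 6.08-fold (95% counting interval 5.76 to 6.42) for Cs3g11180. On the smallest ratio between single libraries, which the rule used, Cs4g10815 and Cs2g22095 lay just inside the 4-fold threshold at 4.06 and 4.13. Just outside it were Cs8g03540 and Cs7g02500, at 3.82 and 3.76, with every other condition met. Cs7g02500 stood at 95 and 125 FPKM in C. sinensis aluminium leaves, 108 and 98.2 FPKM in C. sinensis control leaves, 19.8 and 19.6 FPKM in C. grandis aluminium leaves and 24.5 and 21.7 FPKM in C. grandis control leaves, a pattern of the same kind at a smaller gap. Between 3 and 4 there were 25 such genes, nearly as many as the 29 themselves, so the threshold fell within a continuous range. On the other conditions, the nearest genes outside had an aluminium ratio of 1.501 or 0.639 in C. sinensis, 2.81 or 0.567 in C. grandis, a C. grandis mean of 0.865 FPKM, and a mean over all libraries of 617 FPKM, where the outermost of the 29 had 1.47 and 0.669, 1.45 and 0.669, 1.01 FPKM and 473 FPKM.

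Within C. sinensis, the aluminium over control ratio of mean FPKM + 1 ran from 0.669 to 1.47 over the 29 genes, close to both ends of the allowed range. It was above 1 for 11 genes and below 1 for 18. Both aluminium libraries lay above both control libraries for 9 genes, a pattern seen in 37.2% of the genes tested, and below both for 10, a pattern seen in 23.6%. The bounded ratio was part of the choice, so nothing is read from these shares. Cs8g19910 had the highest ratio, with 117 and 118 FPKM in C. sinensis aluminium leaves and 79.3 and 79.6 FPKM in C. sinensis control leaves. Its replicates agreed within each treatment and the treatments did not overlap. Second was Cs4g19160, with 22.2 and 22.4 FPKM in aluminium leaves and 18.1 and 15.9 FPKM in control leaves of C. sinensis.

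The lowest ratio in C. sinensis was that of Cs3g11170, with 42.2 and 44.8 FPKM in aluminium leaves and 68.9 and 62.2 FPKM in control leaves. Cs7g04020, described above, had the next lowest, at 0.760. Cs3g11170 was the only 1 of the 29 genes that limma called for the aluminium effect in C. sinensis, where 6.34% of all genes tested were called in either direction (3.74% higher and 2.6% lower), and its log2 effect was -0.58 (95% interval -0.86 to -0.30). Leaving out 1 library at a time moved this count between 0 and 4: it was 4 without C. sinensis aluminium replicate 2, 2 without either C. grandis control library, and 0 without any 1 of the other 5. Its neighbour in the numbering, Cs3g11180, had a log2 effect of -0.33 (95% interval -0.66 to -0.01) and was not called. In C. grandis the log2 effects of Cs3g11170 and Cs3g11180 were -0.03 (95% interval -0.31 to 0.24) and -0.01 (95% interval -0.33 to 0.31).

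Scaling bears on the direction of such small effects. The median log2 aluminium effect of all genes in C. sinensis moved by -0.14 when libraries were centred on their median and by -0.11 after quantile normalization. The log2 effect of the 29 genes was above 0 for 11 and below 0 for 18 as deposited, for 7 and 22 after centring, and for 8 and 21 after quantile normalization. Relative to the median of all genes, that of the 29 genes was lower in all 3 cases, at -0.09 against 0.08 as deposited. The 29 genes were chosen with a bound on this effect and all genes were not, so nothing is read from that difference.

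Within C. grandis the aluminium over control ratio ran from 0.669 to 1.45, above 1 for 10 genes and below 1 for 19. Both aluminium libraries lay above both control libraries for 3 genes, beside 24.7% of the genes tested, and below both for 9, beside 40.1%. The libraries of the other 17 genes overlapped between the treatments, and those of 10 did so in C. sinensis. Among all genes tested, the overlapping share is what the 2 shares given for each species leave. The bound was part of the choice, so nothing is read from these numbers, and the difference between them was not tested. Cs1g12030 had the highest ratio, with 2.63 and 2.59 FPKM in C. grandis aluminium leaves and 1.43 and 1.53 FPKM in C. grandis control leaves. Cs9g02790 came next by means, but its control libraries enclosed its aluminium libraries, so its place in the order rests on C. grandis control replicate 1. Its log2 effect, which averages logs rather than levels, was 0.85 (95% interval -0.58 to 2.28) and thus outside the bound that its means satisfied. Without C. grandis control replicate 1 that effect became -0.21.

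The lowest ratios in C. grandis were those of Cs7g25540 and Cs4g19160. Cs7g25540 had 39.6 and 54.5 FPKM in C. sinensis aluminium leaves, 56.7 and 55.2 FPKM in C. sinensis control leaves, 3.45 and 3.72 FPKM in C. grandis aluminium leaves and 5.73 and 5.99 FPKM in C. grandis control leaves. Cs4g19160 had 0.592 and 0.863 FPKM in aluminium leaves and 1.63 and 1.46 FPKM in control leaves of C. grandis. For both genes the C. grandis treatments did not overlap. Limma called 2 of the 29 genes for the aluminium effect in C. grandis, Cs1g12030 with a log2 effect of 0.54 (95% interval 0.27 to 0.81) and Cs4g19160 with -0.56 (95% interval -0.90 to -0.23), where 16.1% of all genes tested were called in either direction (6.41% higher and 9.7% lower). Leaving out 1 library at a time moved this count between 0 and 6, with 6 and 5 called without C. grandis control replicate 1 and 2, 4 without either C. sinensis aluminium library, and none without any 1 of the others. As in C. sinensis, nothing is read from this count, since the bound was part of the choice.

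The bound on the ratio of means does not show that the level stayed the same. With 2 libraries per group, the 95% interval of a gene's log2 aluminium effect had a median half-width of 0.444, where the bound corresponds to 0.585. That interval lay wholly within the bound for 5 of the 29 genes in C. sinensis and for 5 in C. grandis. For the other 24 in each species a change beyond 1.5-fold was within the interval. Being inside the bound was also common, and 68.3% of all genes tested met it in both species. The fit gave each gene 1 spread over all 4 groups. The width of a gene's interval was therefore the same in both species and does not measure the spread of either alone. For Cs8g19910 the interval in C. sinensis was -0.23 to 1.35. Its replicates differed by 0.0199 and 0.00657 on log2(FPKM + 1) in C. sinensis aluminium and control leaves, and by 1.16 in C. grandis control leaves.

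**Figure D3:**
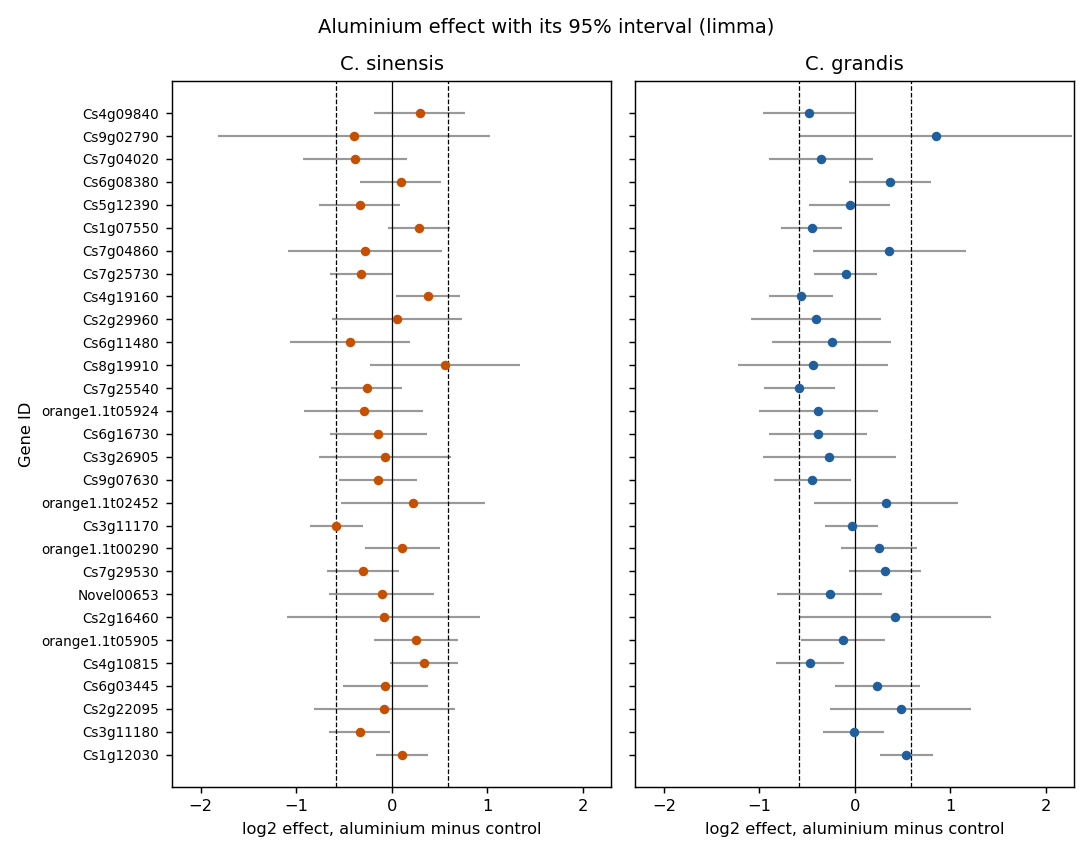
Log2 aluminium effect (horizontal, aluminium minus control on log2(FPKM + 1)) of each of the 29 genes in C. sinensis and in C. grandis, with its 95% interval from limma as a grey bar and dashed lines at 1.5-fold either way. Intervals lie wholly between the dashed lines for 5 genes in each species, and Cs9g02790 has the widest.

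Set side by side, the aluminium ratios were below 1 in both species for 12 genes, above 1 in both for 4, above 1 in C. sinensis only for 7 and above 1 in C. grandis only for 6. Cs8g19910 had a ratio of 1.47 for C. sinensis, against 0.683 for C. grandis. Its C. grandis libraries stood at 7.80 and 7.69 FPKM in aluminium leaves and 16.7 and 6.92 FPKM in control leaves, so the low ratio in C. grandis rested on control replicate 1 alone. The difference of its log2 effects, C. sinensis minus C. grandis, was 1.0 (95% interval -0.12 to 2.11). For Cs4g19160, where the treatments were separated in opposite directions in the species, the difference was 0.94 (95% interval 0.47 to 1.41). Limma called none of the 29 genes for a difference of the aluminium effect, where 2.32% of all genes tested were called (1.52% with the larger effect in C. sinensis and 0.796% with the smaller). At an unadjusted p below 0.05 it found 7 of the 29, beside 20.6% of all genes tested. Voom on reads recovered from the FPKM found 6 at that threshold, beside 17.2%, and also called none. Without C. grandis control replicate 2, limma called 2.

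The rule used the lowest and the highest single libraries and the means of replicates, so the spread between replicates helped to decide which genes were chosen, and it is given here as a description. In C. grandis control leaves the median difference between replicates over the 29 genes was 0.429 on the log2(FPKM + 1) scale. Genes tested at like level, those between the quartiles of the 29 genes in that group, had a median of 0.281. The medians of the 29 genes and of genes at like level were 0.213 and 0.182 in C. sinensis aluminium, 0.128 and 0.0965 in C. sinensis control and 0.142 and 0.122 in C. grandis aluminium leaves. The median of the 29 genes was thus above that at like level in all 4 groups, by most in C. grandis control. Length was not held equal in this comparison, and shorter genes have fewer reads at the same FPKM.

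The largest difference between replicates was that of Cs9g02790 in C. grandis control leaves, at 2.12 on the log2 scale. Second was Cs2g16460 in the same group, at 1.45. Cs2g16460 stood at 20.1 and 21.7 FPKM in C. sinensis aluminium leaves, 23.3 and 21.2 FPKM in C. sinensis control leaves, 3.17 and 2.41 FPKM in C. grandis aluminium leaves and 0.708 and 3.67 FPKM in C. grandis control leaves. For Cs9g02790 and Cs2g16460 replicate 1 was the low library, while for Cs7g04860 and Cs6g03445 it was replicate 2. The direction was thus not the same for every gene, and these named genes do not show which was more common. Of the 4 C. grandis libraries, control replicate 1 was the lowest for 10 of the 29 genes and control replicate 2 for 5. Among the genes tested these shares were 26.3% and 22.1%. Control replicate 2 was the highest for 13 of the 29 genes and control replicate 1 for 6, beside 32.1% and 34.2% of the genes tested. In C. grandis aluminium leaves, 28 of the 29 genes had at least 20 reads in all, and their mean chi-square between replicates was 1.2, against 15.2 in C. grandis control leaves. Over the 29 genes the spread in C. grandis aluminium leaves was thus close to counting error alone.

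**Figure D4:**
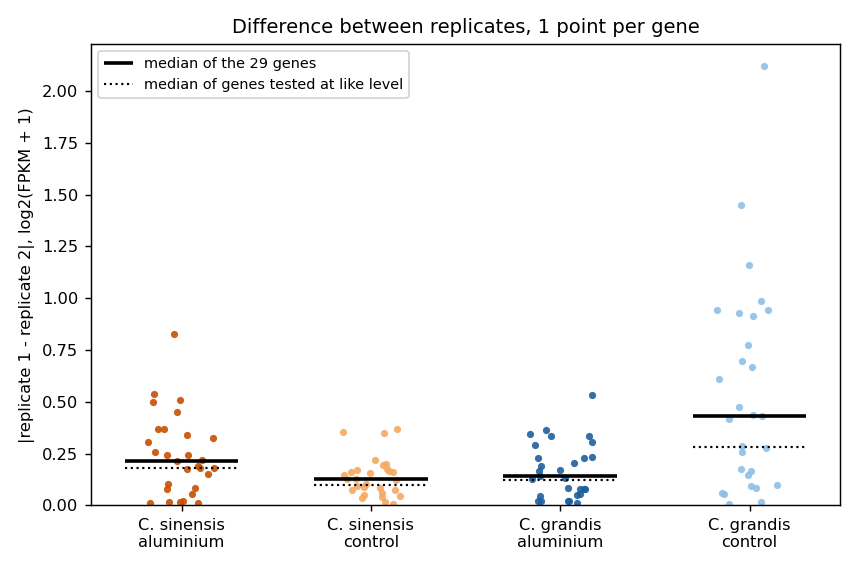
Absolute difference between the 2 replicates of each group (vertical, log2(FPKM + 1)) for the 29 genes, 1 point per gene, with their median as a solid line and the median of genes tested at like level as a dotted line. C. grandis control has the widest spread, with Cs9g02790 at 2.12.

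Length was not part of the rule. Recovered from the FPKM, it had a median of 827 bp over the 29 genes, beside 1720 bp over all genes tested. Quartiles were 746 and 1434 bp for the 29 genes, and 1161 and 2400 bp for all genes tested. Of the 29, 19 were under 1000 bp, 65.5%, beside 18.6% of the genes tested. The longest were Cs2g29960 and Cs1g07550, with 2097 and 1956 bp, and the shortest were Cs6g11480 and Cs6g08380, with 237 and 253 bp. Genes close to the rule were short as well. The 211 genes that met the gap and the bound with a C. grandis mean under 1 FPKM had a median of 849 bp, and the 25 genes with a gap between 3 and 4 had a median of 1002 bp. The 19 genes that left only the aluminium bound were longer than these, with a median of 1202 bp and 42.1% under 1000 bp.

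Cs6g11480, the shortest, had 24.9 and 45.0 FPKM in C. sinensis aluminium leaves, 44.6 and 47.0 FPKM in C. sinensis control leaves, 2.67 and 3.54 FPKM in C. grandis aluminium leaves and 3.85 and 3.82 FPKM in C. grandis control leaves. C. sinensis aluminium replicate 1 was its low library in that species, and the 4 C. grandis libraries held 11 and 14 reads in aluminium leaves and 15 and 17 reads in control leaves. The longest, Cs2g29960, had 34.3 and 28.5 FPKM in C. sinensis aluminium leaves, 32.4 and 28.1 FPKM in C. sinensis control leaves, 1.84 and 1.89 FPKM in C. grandis aluminium leaves and 1.77 and 4.22 FPKM in C. grandis control leaves. Its C. grandis control replicate 2 stood above the other 3 libraries of that species. Cs1g07550 had 43.0 and 36.9 FPKM in C. sinensis aluminium leaves, 34.4 and 30.7 FPKM in C. sinensis control leaves, 0.972 and 1.16 FPKM in C. grandis aluminium leaves and 1.74 and 1.91 FPKM in C. grandis control leaves. In that gene the aluminium libraries lay above the control libraries in C. sinensis and below them in C. grandis. Its log2 effects differed by 0.74 (95% interval 0.28 to 1.19), which limma did not call.

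The ID numbering was not used by the rule either. Of the 29 genes, 24 belong to the 9 numbered series from Cs1g up to Cs9g, 4 have the prefix orange1.1t and 1 is Novel00653. The share with orange1.1t was 13.8%, beside 14.3% of the genes tested. All 9 numbered series were represented, with 5 genes in Cs7g, 4 in Cs6g and 1 to 3 in each of the others. Numbers of these series mostly run in steps of 10, and 2.72% of the genes tested in them, 365 of 13442, end in another digit. Among the 24 this was so for 4, 16.7%. Those were Cs2g22095, Cs3g26905, Cs4g10815 and Cs6g03445, of which Cs3g26905 is named for its digit, after its values were seen. In the 134 such IDs of the set with a C. grandis mean under 1 FPKM the share was 19.4%. No source used here says what an ID off the step of 10 stands for.

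The 29 genes were mostly scattered along the numbering. One pair, Cs3g11170 and Cs3g11180, was consecutive. Cs3g11180 is given above, and Cs3g11170 stood at 6.28 and 6.96 FPKM in C. grandis aluminium leaves and 7.25 and 6.36 FPKM in C. grandis control leaves, beside its C. sinensis levels given earlier. The levels of the pair were of the same order in each species, with means of 54.5 and 76.9 FPKM in C. sinensis and 6.71 and 12.7 FPKM in C. grandis. The gene before them, Cs3g11160, had a mean of 2.87 FPKM in C. sinensis, against 0.299 FPKM in C. grandis.

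For 28 of the genes the IDs just before and after could be read from the numbering, and 54 of these neighbours were outside the 29. Of these, 34 had a mean of at least 1 FPKM. Their log2 ratio of mean FPKM + 1, C. sinensis over C. grandis, had a median of 0.0298. This median was 2.96 for the 29 genes and -0.114 for all genes tested. The ratio lay within 2-fold either way for 25 of the 34, beside 79.8% of the genes tested, was at least 2-fold higher in C. sinensis for 7, beside 10.4% of the genes tested, and at least 2-fold lower for 2, beside 9.84%. Next to Cs7g04020, for example, Cs7g04030 averaged 294 FPKM in C. sinensis leaves, against 345 FPKM in leaves of C. grandis. On either side of Cs4g09840, Cs4g09830 averaged 2.07 FPKM in C. sinensis leaves, against 0.0964 FPKM in leaves of C. grandis, and Cs4g09850 averaged 35.4 FPKM in C. sinensis leaves, against 35.1 FPKM in leaves of C. grandis. On FPKM + 1, which lowers the ratio of genes at low level, the widest of the 7 was Cs8g19920, after Cs8g19910. It averaged 29.6 FPKM in C. sinensis leaves, against 6.55 FPKM in leaves of C. grandis. In the other direction, orange1.1t05928, the next ID after orange1.1t05924, averaged 13.1 FPKM in C. sinensis leaves, against 168 FPKM in leaves of C. grandis. Farther off, Cs6g08360, 2 places before Cs6g08380, averaged 151 FPKM in C. sinensis leaves, against 15.7 FPKM in leaves of C. grandis. These neighbours were chosen for mention after their values were seen.

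**Figure D5:**
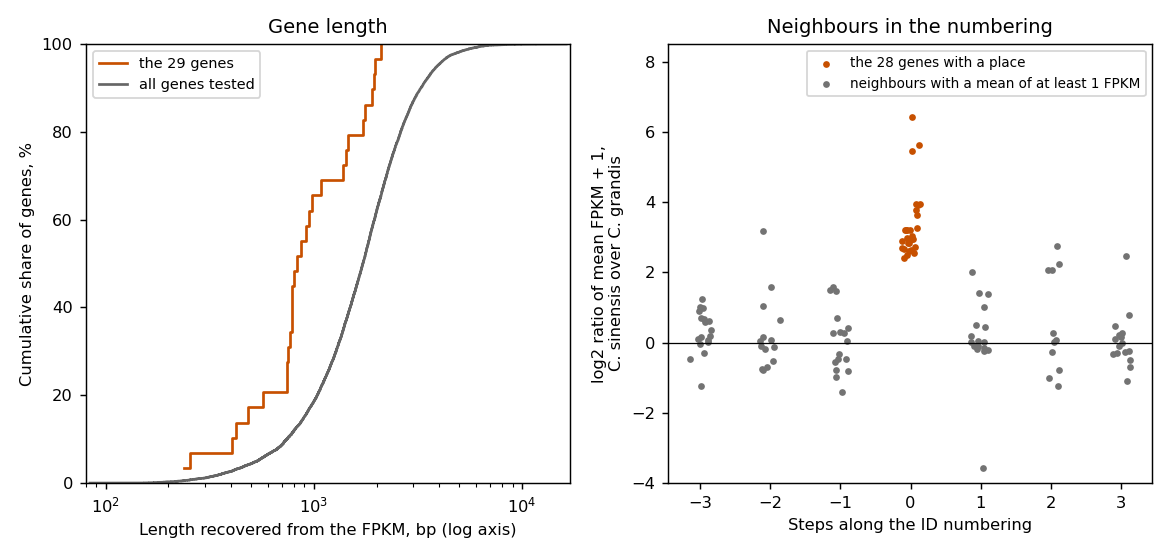
Left, cumulative share of genes (vertical, %) by recovered length in bp (horizontal, log axis) for the 29 genes in orange and all genes tested in grey. Right, log2 ratio of mean FPKM + 1, C. sinensis over C. grandis (vertical), for the 28 genes with a place in the numbering at step 0 and for their neighbours with a mean of at least 1 FPKM, up to 3 steps before and after. The orange curve lies left of the grey one, with medians of 827 and 1720 bp, and most neighbours lie near 0.

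The same rule with the species exchanged found 9 genes higher in C. grandis, against the 29 higher in C. sinensis. The median ratio of mean FPKM + 1 between the higher and the lower species was 7.80 for the 29 genes and 11.1 for the 9, and the widest was 85.7 and 18.1. The median level in the lower species was 3.47 FPKM for the 29 and 2.72 FPKM for the 9. The median length of the 9 was 1290 bp, with 4 of them under 1000 bp. All these are descriptions of 2 lists chosen on the same libraries, and the numbers 29 and 9 were not tested against each other. Reads of both species were counted on 1 set of IDs. Reads lost on sequence that differs between the species may therefore not weigh equally on the 2 lists, which was not tested.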

How the data were processed

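Leaf RNA of 8 libraries was sequenced, 2 in each of 4 groups, taken from the labels. The deposited FPKM, read and gene length normalized by the authors per the file headers, cover 30297 IDs. Tools listed in the submitters' processing notes are HTSeq, TopHat2, Bowtie and edgeR 1.18.0, without role or order. No source used here gives the genome build or strand setting. No table pairing IDs with names was used, so names, sequences and functional groups are not analysed here.

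Gene lengths, library totals and whole reads were recovered from the FPKM by continued fractions. Reads came out whole within 0.01 for 100% of the 22312 IDs with reads in several libraries. Lengths were chosen to make the reads whole, so this shows only that such a length was found. The 29 genes and all lists were chosen with earlier results of these data known. Limma 3.58.1 in R 4.3.3 fitted 4 group means to log2(FPKM + 1), with an intensity trend, over all 8 libraries and the 16327 genes with a mean of at least 1 FPKM, with Benjamini-Hochberg adjustment at 0.05. The pseudocount of 1 understates the fold of low genes. Ratios of reads carry exact 95% counting intervals, and the chi-square between replicates is on genes with at least 20 reads in the pair. The script was tested on simulated data. IDs were named at no more than 2 at each end of the orders by species ratio, level in each species, aluminium ratio in each species, replicate difference and length, plus the 2 on either side of the 4-fold gap and any consecutive run. Cs7g04860, Cs3g26905, Novel00653 and the named neighbours were chosen after their values were seen. The alternatives were another pseudocount, gap, bound, minimum, filter or scaling, voom on recovered reads, C. grandis aluminium counted as 1 replicate, a replicate block, and each library left out.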

Additional observations from a re-analysis of the deposited data

How the results depend on the processing

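The number of genes that met the rule was 29. It was 26 with a pseudocount of 0.1, of which 18 were among the 29, and 12 with a pseudocount of 5, of which 10 were. It was 54 at a 3-fold gap, 16 at a 5-fold gap, 10 at a narrower aluminium bound, 10 with a C. grandis mean of at least 5 FPKM and 240 with no minimum in C. grandis. With 1 library left out it ranged from 22 to 36, and without C. grandis control replicate 1 only 16 of the 22 were among the 29. All 29 were called higher in C. sinensis, both in aluminium and in control leaves, under each of the 16 alternatives of the fit. The aluminium effect in C. sinensis was called for 1 gene, and for 0 with no filter on low values, with C. grandis aluminium taken as 1 replicate and with the replicate block; it ranged from 0 to 4 with 1 library left out. In C. grandis it was called for 2 genes, for 4 at a pseudocount of 0.1, for 1 with no filter, 1 with centred libraries, 1 after quantile normalization, and 0 with voom or with C. grandis aluminium taken as 1 replicate; it ranged from 0 to 6 with 1 library left out. A species difference of the effect was called for 0 genes and for 0 to 2 with 1 library left out. The summed FPKM of the 29 genes was 15.2 times higher in C. sinensis, and 14.7 to 15.8 times with 1 library left out. The rule required the gap between the species, so nothing is read from this ratio or from the calls of all 29 genes. The log2 aluminium effect of Cs9g02790 in C. grandis was 0.85 and turned to -0.21 without C. grandis control replicate 1, and ranged from -0.21 to 1.91 with 1 library left out. The causes were not tested.

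Same-numbered libraries did not vary together, with correlations of their deviations from -0.0125 to 0.0463, so replicate numbers were not treated as pairs. With the replicate block the count for aluminium in C. grandis was again 2, but limma then gave Cs4g19160 an adjusted p of 0.0671, so that it was not called, and Cs1g12030 one of 0.0487. The block took the count in C. sinensis to 0, with Cs3g11170 at an adjusted p of 0.0735, and changed neither the counts of species differences nor that of the difference in the effect. A library left out of a group leaves 1 library there, assumed to vary like the other groups. Depth limits the C. grandis levels, where 11 of the 29 genes had fewer than 20 reads in at least 1 library.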
